A study of Rattus norvegicus with 66 samples.

Results

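The 8 genes described here, Mef2c, Tbr1, Fezf2, Cux1, Cux2, Bcl11b, Rorb and Lamp5, are markers of neuronal layers of the neocortex, and they were measured in a piece of rat brain labelled dorsal hippocampus. They were chosen by name, by matching the gene symbols of the count files, which found 8 of 8 members among 37777 genes. The set was selected on its correlation across pups as a sign of cortex in the dissected piece, so the correlations among members given below are a description with no test.

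RNA was sequenced from Long Evans rat pups on postnatal day 6, as 66 libraries from 64 pups of 44 litters. Dams received one of 3 chemicals that reached the offspring in pregnancy and lactation. Aroclor 1254 (Aro), a mixture of polychlorinated biphenyls, was given in chow at 0.5 or 5 mg/kg. Bisphenol A (BPA) was given in chow at the same doses, and chlorpyrifos (CPF), an organophosphate insecticide, was injected subcutaneously at 1 or 3 mg/kg. CONF pups were controls for feeding and CONSC pups were controls for injection. The males comprised 4 CONF and 5 CONSC pups, 6 Aro5, 7 BPA5 and 7 CPF3 pups at the high doses, and 4 pups each of Aro0.5, BPA0.5 and CPF1 at the low doses. The females comprised 5 CONF, 5 CONSC, 5 Aro5, 4 BPA5 and 4 CPF3 pups. CONF and CONSC were combined within a sex as controls, giving 9 male and 10 female pups, and all comparisons of one sex share them. Some pups are littermates, and 18 litters gave pups of both sexes, so pups are not fully independent. According to the study's methods, the piece was cut from a frozen frontal slice and took in neocortex lying lateral to the hippocampus.

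Layer identity in the neocortex is set by transcription factors that are switched on in neurons born at different times and that repress one another. Deep-layer neurons project to the thalamus, brainstem and spinal cord, and upper-layer neurons connect cortical areas with each other. Tbr1 is a T-box factor of corticothalamic and early-born deep neurons, Fezf2 is a zinc finger factor required for corticospinal neurons, and Bcl11b (Ctip2) acts downstream of it. Rorb is an orphan nuclear receptor enriched in the middle layer that receives thalamic input, Cux1 and Cux2 are homeobox factors of upper layers, Mef2c is an activity-regulated factor of cortical excitatory neurons, and Lamp5 is a lysosome-associated membrane protein found in cortical neurons and in some interneurons. Several members are not confined to cortex. Bcl11b is also a defining factor of striatal medium spiny neurons and is expressed in hippocampal neurons, and Mef2c and Tbr1 are expressed in parts of the hippocampal formation.

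Promoter windows from 250 bases before to 50 after the start site were found for 6 of the 8 members in the RefSeq table of the GRCr8 build: Tbr1, Fezf2, Cux1, Cux2, Rorb and Lamp5. The 3 below are shown because Tbr1 was the one member called in the comparison of the sexes and because Fezf2 and Lamp5 were the pair of members with the most negative correlation across pups. Capitals mark the E-box CANNTG, the letters bound by neurogenic basic helix-loop-helix factors such as the Neurod family, which read the same on both strands. The count files used the Rnor_6.0 build, so these coordinates are not those of the counted reads.
Tbr1 (chr3:66759553-66759852, plus strand): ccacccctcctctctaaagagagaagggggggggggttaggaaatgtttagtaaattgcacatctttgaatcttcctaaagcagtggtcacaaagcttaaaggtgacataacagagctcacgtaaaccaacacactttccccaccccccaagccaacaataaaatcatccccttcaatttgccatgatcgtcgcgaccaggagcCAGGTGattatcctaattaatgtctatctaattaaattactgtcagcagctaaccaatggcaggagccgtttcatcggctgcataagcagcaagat
Fezf2 (chr15:15203943-15204242, plus strand): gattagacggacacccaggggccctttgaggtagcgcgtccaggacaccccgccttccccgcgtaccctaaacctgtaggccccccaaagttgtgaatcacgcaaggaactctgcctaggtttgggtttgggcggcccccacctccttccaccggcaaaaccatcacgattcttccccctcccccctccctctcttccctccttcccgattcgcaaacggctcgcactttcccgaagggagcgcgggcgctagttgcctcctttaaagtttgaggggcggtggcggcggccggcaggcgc
Lamp5 (chr3:143824947-143825246, plus strand): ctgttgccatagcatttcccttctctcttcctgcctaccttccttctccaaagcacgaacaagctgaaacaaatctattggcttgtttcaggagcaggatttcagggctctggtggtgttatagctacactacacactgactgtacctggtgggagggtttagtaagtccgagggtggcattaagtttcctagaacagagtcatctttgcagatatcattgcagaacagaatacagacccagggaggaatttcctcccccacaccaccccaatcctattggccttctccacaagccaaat
The E-box occurred in 72.1% of 33469 promoters of this length, and 1 each was present in the windows of Tbr1, Cux2 and Rorb. The windows differed in base composition, with 45.3% G and C in Tbr1 and 47.7% in Lamp5 against 63.3% in Fezf2, 75.7% in Cux1, 73.0% in Cux2 and 60.7% in Rorb, where the median of all promoters was 51.7%.

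Levels are given as CPM, that is the reads of a gene per 1000000 counted reads of that pup. Total counts ranged from 10644138 to 86206550 per library with a median of 20740650. Every member had at least 48 reads in every pup, so none was limited by a count of 0. CPM is not divided by gene length, so levels are compared between pups and not between genes. In such bulk tissue, fewer cells of a type and less RNA per cell cannot be told apart. Among hippocampal subfield genes, summed levels ran from 102 to 287 CPM over pups, and Fibcd1, a marker of CA1 neurons, had 0 reads in every pup. Eno2, a glycolytic enzyme of neurons in general, and the interneuron peptide Npy had at most 1 read in any pup, and the choroid plexus gene Otx2 at most 3, so a count near 0 in these files is not read as the absence of a cell type. Striatal genes (a list that includes Drd1, Drd2, Ppp1r1b, Rgs9, Adora2a, Penk and Tac1) summed to 106 to 1570 CPM, and thalamic genes summed to 205 to 1593 CPM.

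The female CONSC pup 9-1x stood apart before any comparison. Its Fezf2 level of 4.73 CPM and its Tbr1 level of 2.60 CPM were the lowest of all 64 pups, and its Bcl11b level of 268 CPM and Lamp5 level of 52.7 CPM were the highest. Mef2c (137 CPM), Cux2 (44.6 CPM) and Rorb (23.0 CPM) were also lowest in this pup, while Cux1 (152 CPM) was not. The summed level of the striatal list was 1570 CPM in this pup, the highest of all pups, and that of the pan-pallial excitatory neuron genes (a list that includes Neurod2, Neurod6, Emx1, Emx2 and Slc17a7) was 188 CPM, the lowest. Its library held 33399641 reads. Results that rest on it are given with and without it.

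**Figure D1:**
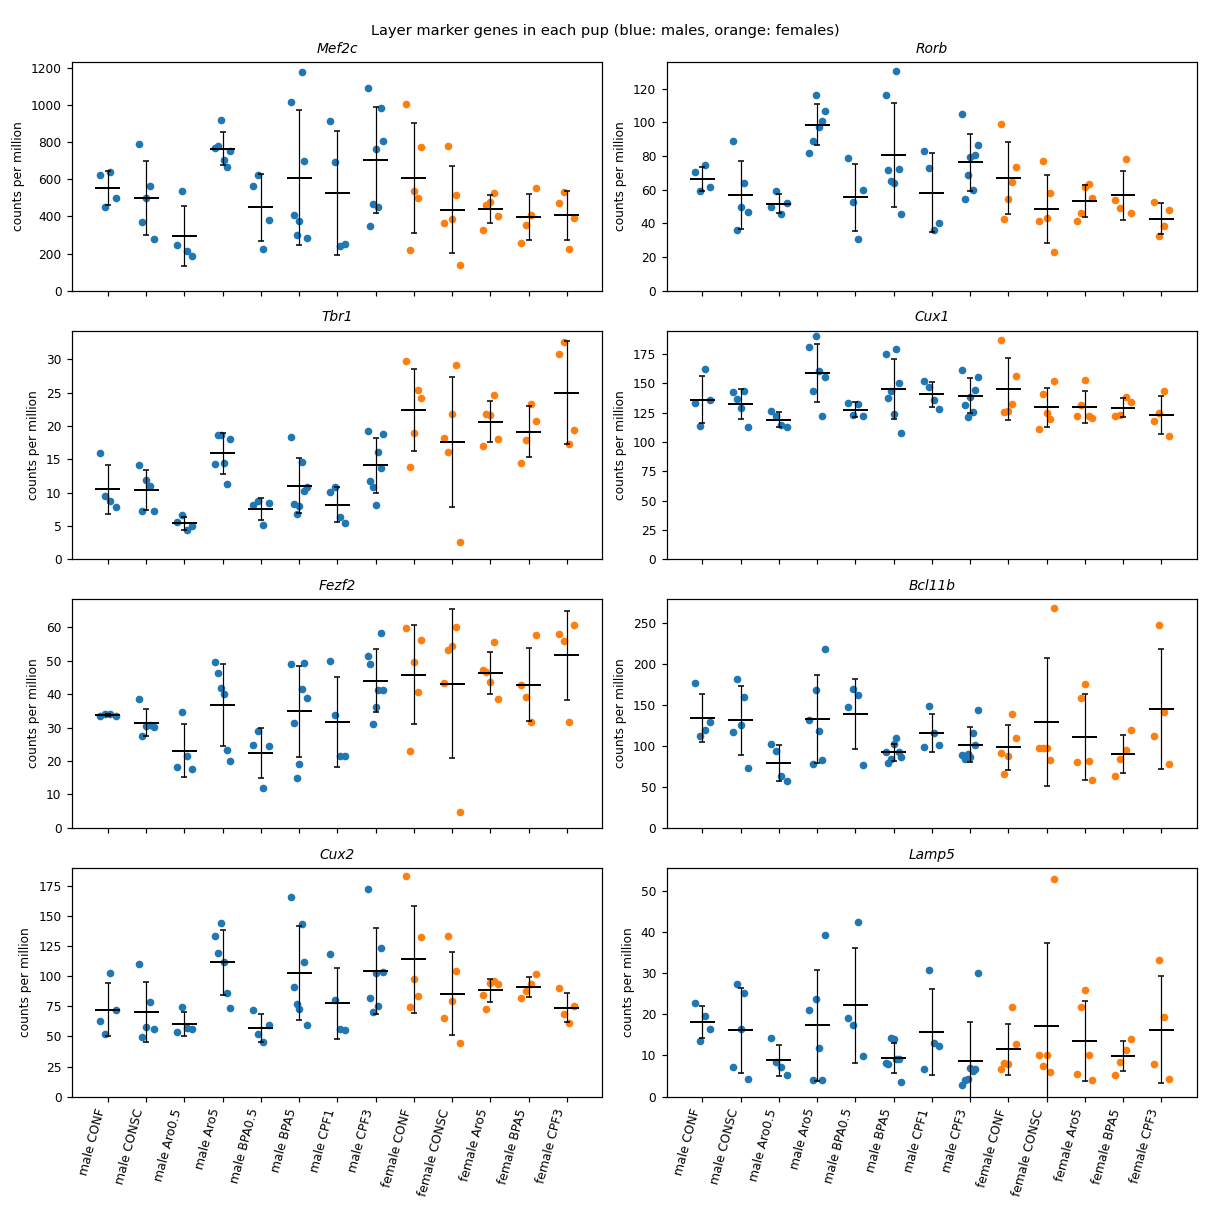
CPM (vertical axes, linear and starting at 0) of the 8 layer marker genes in each of 64 pups, by group on the horizontal axis, with points for pups (blue males, orange females), black bars for group means and whiskers for 1 SD. Tbr1 lies higher in female than in male groups, and female CONSC pup 9-1x holds the lowest Fezf2 value of 4.73 CPM and the highest Lamp5 value of 52.7 CPM.

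Among the deep-layer factors, Tbr1 ranged from 2.60 to 32.5 CPM over pups with a median of 14.2 CPM. In male CONF pups its levels were 16.0, 9.46, 8.77 and 7.78 CPM, and in male CONSC pups 14.2, 7.30, 11.9, 11.0 and 7.28 CPM. In female CONF pups they were 29.8, 13.8, 18.9, 25.4 and 24.2 CPM, and in female CONSC pups 18.3, 16.0, 21.9, 29.1 and 2.60 CPM. All female controls except 13.8 and 2.60 CPM were higher than the highest male control. The largest share of spread between groups was seen in Tbr1, where 39.0% of the variance of log2(CPM + 1) lay within groups, against 55.4% to 81.4% in the other members.

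Fezf2 ranged from 4.73 to 60.8 CPM. It was nearly the same in the 4 male CONF pups, at 33.4, 34.1, 34.0 and 33.5 CPM. The 33.4 CPM of pup N2-2y, however, joins 2 libraries that gave 26.7 and 39.6 CPM. Male CONSC pups ran from 27.5 to 38.6 CPM. Male Aro0.5 pups had 18.4, 34.7, 21.6 and 17.6 CPM, and male BPA0.5 pups had 24.7, 28.8, 11.8 and 24.5 CPM. All but 2 of these 8 low-dose values were below the lowest male control. Female CPF3 pups had 58.0, 55.8, 31.7 and 60.8 CPM, so that 1 pup lay below the other 3.

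Mef2c had the highest counts of the set, from 137 to 1181 CPM, and it varied strongly within groups. Male BPA5 pups ran from 285 CPM through a median of 410 CPM to 1181 CPM, a 4.14-fold range, whereas the 6 male Aro5 pups lay between 666 and 922 CPM with a median of 762 CPM. Male Aro0.5 pups had 247, 535, 216 and 185 CPM, and male controls ran from 276 CPM through a median of 500 CPM to 791 CPM.

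Of the middle and upper layer genes, Rorb ranged from 23.0 to 131 CPM and Cux2 from 44.6 to 183 CPM. Male Aro5 pups had Rorb between 81.9 and 116 CPM with a median of 99.2 CPM, and male controls between 36.2 and 88.7 CPM with a median of 61.8 CPM, so the ranges overlapped only from 81.9 to 88.7 CPM. Cux2 ran from 74.0 through 116 to 144 CPM in male Aro5 pups and from 49.8 through 62.8 to 110 CPM in male controls. Cux1 was the least variable member, with levels from 105 to 191 CPM, a 1.81-fold range over all pups against 4.11-fold in Cux2 and 18.1-fold in Lamp5.

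Bcl11b ranged from 56.8 to 268 CPM and Lamp5 from 2.91 to 52.7 CPM. Pups with high Lamp5 occurred in most groups. Lamp5 was 29.996 CPM in male CPF3 pup 45-1y while the other 6 pups of that group lay between 2.91 and 6.89 CPM. Female CPF3 pups had 7.97, 33.2, 19.3 and 4.27 CPM of Lamp5 and 112, 248, 141 and 78.3 CPM of Bcl11b, so that both genes placed the pups in the same order. In male BPA0.5 pups Lamp5 was 19.0, 17.3, 42.3 and 9.80 CPM. Of the variance of Lamp5, 81.4% lay within groups.

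Across pups the 8 members did not vary as 1 set. On the log2(CPM + 1) scale, with each pup centred on its group mean, Pearson's r between Mef2c, Tbr1, Fezf2, Cux2 and Rorb ran from 0.54 to 0.84 with a median of 0.72 over 10 pairs and 64 pups. Bcl11b and Lamp5 varied together with r = 0.88. Between these 2 genes and the other 5, r ran from -0.40 (Fezf2 with Lamp5) to 0.11 (Mef2c with Bcl11b), and 9 of 10 pairs were below 0. Cux1 lay between, with r = 0.61 with Cux2, 0.48 with Mef2c, 0.48 with Bcl11b, 0.47 with Lamp5 and 0.08 with Fezf2. The grouping of members in these sentences was made after the values were seen. Pups share litters, groups and the sum to which CPM is scaled, so no p is given.

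Without centring, the median r over the 10 pairs of Mef2c, Tbr1, Fezf2, Cux2 and Rorb was 0.63 and Spearman's rho had a median of 0.62, with the lowest pair Tbr1 and Rorb at r = 0.30. Bcl11b with Lamp5 gave r = 0.86 and rho = 0.84. Within males r between the 5 genes had a median of 0.74 and within females 0.75. Without pup 9-1x, Bcl11b with Lamp5 gave r = 0.85, and Fezf2 with Lamp5 moved from -0.39 to -0.29. The library titles came in 2 spellings, here called forms A and B, whose meaning is not stated. The titles of the 13 libraries of treated females did not show which form they had, so title form could not be examined in the female treatment and interaction comparisons. Within the 24 pups of form A the median r of the 5 genes was 0.75, and within the 25 pups of form B it was 0.55, where Fezf2 with Rorb gave -0.05. Total count moved little with any member, at r from -0.22 for Bcl11b to 0.15 for Tbr1.

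**Figure D2:**
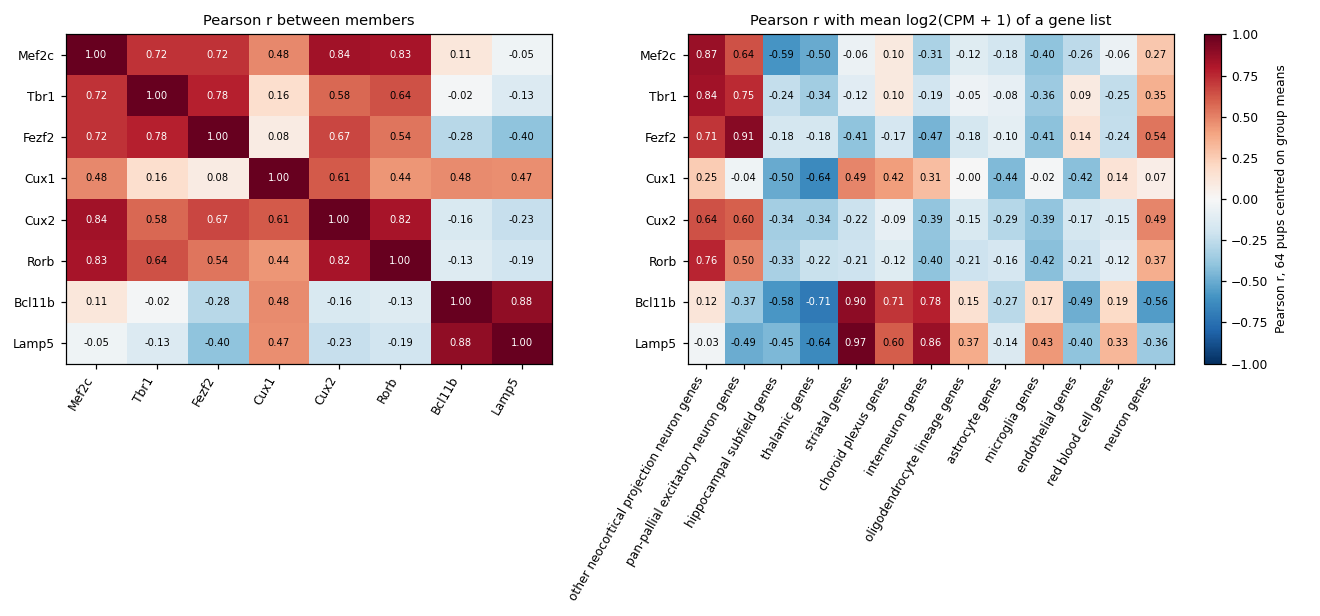
Pearson's r over 64 pups centred on group means, between the 8 members (left) and of each member (rows) with the mean log2(CPM + 1) of 13 gene lists (columns, right), coloured from blue (-1) to red (1) with the value in each cell. Cells between Mef2c, Tbr1, Fezf2, Cux2 and Rorb run from 0.54 to 0.84. Cux1, placed among them, runs from 0.08 with Fezf2 to 0.61 with Cux2. Bcl11b and Lamp5 reach 0.90 and 0.97 with the striatal genes.

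The lists showed which other genes moved with the members, and r was again taken within groups. Lamp5 followed the striatal list with r = 0.97, and each of its 8 genes did so on its own, from 0.93 for Rgs9, a regulator of G protein signalling, to 0.97 for Ppp1r1b (DARPP-32). Bcl11b gave r = 0.90 with the striatal list, while Mef2c, Tbr1, Fezf2, Cux2 and Rorb ran from -0.41 to -0.06. Lamp5 and Bcl11b also gave r = 0.86 and 0.78 with the interneuron list and 0.60 and 0.71 with the choroid plexus list. The interneuron genes were not uniform. Lamp5 gave 0.79 with Gad1, 0.78 with Gad2, 0.74 with Slc32a1, 0.49 with Lhx6 and -0.22 with Reln. Bcl11b gave 0.66, 0.67, 0.54, 0.63 and 0.12 with the same genes. Without centring and without pup 9-1x, Lamp5 and Bcl11b gave 0.97 and 0.87 with the striatal list. How much of their level came from striatal tissue or from interneurons was not tested.

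The other 5 genes followed cortical lists. The list of 19 other neocortical projection neuron genes gave r = 0.87 with Mef2c, 0.84 with Tbr1, 0.76 with Rorb, 0.71 with Fezf2 and 0.64 with Cux2, against 0.25 with Cux1, 0.12 with Bcl11b and -0.03 with Lamp5. Within it, Foxp2, a deep-layer factor also found in thalamus and striatum, gave -0.58 with Mef2c and -0.58 with Fezf2. Pcp4, a calmodulin-binding peptide, was also negative with all 5 genes, from -0.45 with Rorb to -0.64 with Fezf2. Syt6 and Tle4, deep-layer genes, gave 0.82 and 0.68 with Bcl11b and 0.75 and 0.52 with Lamp5. Fezf2 was closest to the pan-pallial list (r = 0.91), with 0.90 for Neurod2, 0.89 for Neurod6 and 0.88 for Emx1. The thalamic list was negative with all 8 members, from -0.18 with Fezf2 to -0.71 with Bcl11b. Prkcd, a protein kinase C in that list, ran the other way, with 0.71 with Mef2c, 0.73 with Cux2 and 0.71 with Rorb. The hippocampal subfield list was also negative with all 8, from -0.18 with Fezf2 to -0.59 with Mef2c. Its genes were not uniform, as Dsp gave 0.49 with Bcl11b and 0.43 with Lamp5, and Zbtb20 gave 0.44 with Tbr1 and 0.30 with Rorb. Spink8 and Iyd of that list had means of only 0.24 and 0.28 CPM. Without centring, that list gave 0.23 with Tbr1 and 0.10 with Fezf2.

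**Figure D3:**
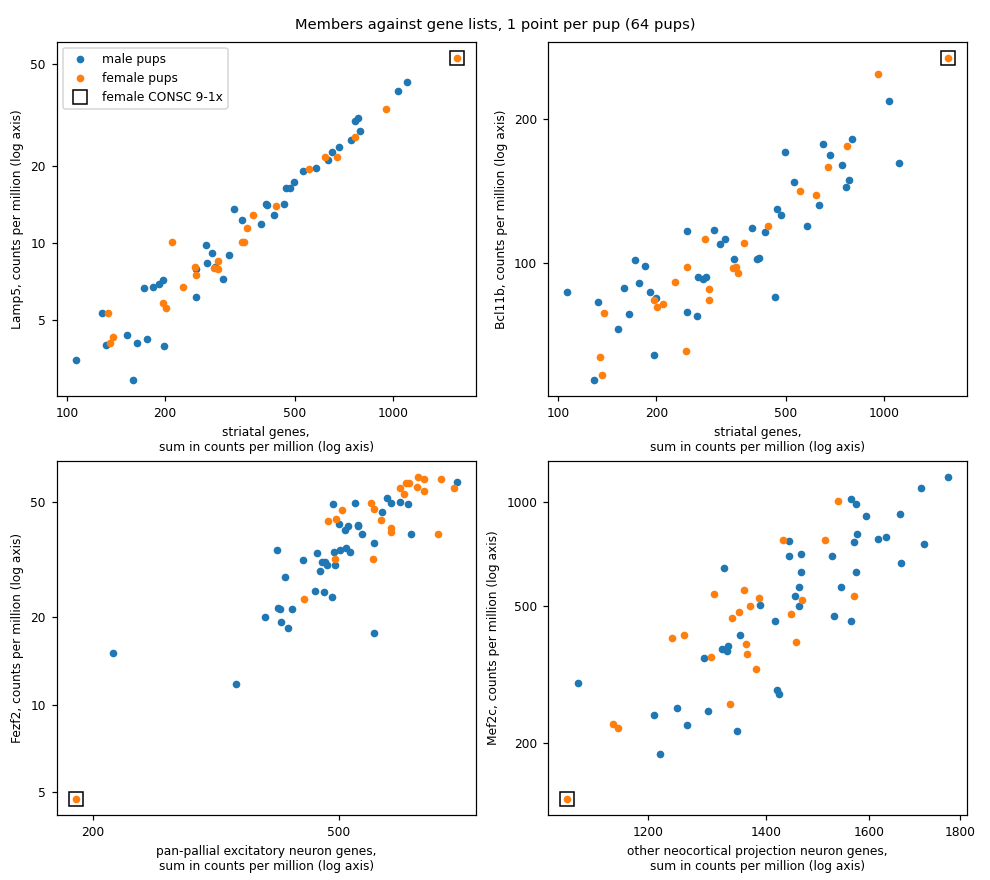
Level of Lamp5, Bcl11b, Fezf2 and Mef2c (vertical axes, CPM, log scale) against the summed level of a gene list (horizontal axes, CPM, log scale), with 1 point per pup (blue males, orange females) and a square around female CONSC pup 9-1x. Lamp5 rises with the striatal list along a narrow band, and the squared pup is highest for Lamp5 (52.7 CPM) and Bcl11b (268 CPM) and lowest for Fezf2 (4.73 CPM).

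Among 14694 other genes with a mean of at least 1 CPM, those with the highest mean r to the 8 members were Npas2 (0.59), Cdk19 (0.59), Dock3 (0.59), Sla (0.58), Ptprk (0.58), Sybu (0.57), Kcnh1 (0.57), Gas7 (0.56), Rgs6 (0.56) and Satb1 (0.56). The lowest were Ctxn2 (-0.57), Rgs8 (-0.56), Nol3 (-0.55), Dpp6 (-0.55) and Dnajc12 (-0.55). For single members the nearest genes were Satb1 for Mef2c (r = 0.97), Miat for Tbr1 (0.85), Neurod2 for Fezf2 (0.90), Fstl4 for Cux1 (0.88), Boc for Cux2 (0.91), Sertad4 for Bcl11b (0.96), Cacna2d1 for Rorb (0.90) and Ppp1r1b for Lamp5 (0.97). The median r of a member with all these genes lay between -0.06 and 0.06. In all, 82 genes passed r = 0.8 with Mef2c, 89 with Bcl11b and 95 with Lamp5, against 1 with Cux1 and 8 with Tbr1.

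The question of the treatments was whether high-dose males differed from male controls. None of the 8 members was called in male Aro5, BPA5 or CPF3 pups (adjusted p under 0.05) when p-values of the edgeR quasi-likelihood fit were adjusted over all genes by Benjamini-Hochberg, where the background was 0.195%, 0.189% and 0.159% of 16393 genes. At an unadjusted p under 0.05 there were 4, 3 and 4 members, where 11.8%, 9.1% and 12.6% of all genes passed. DESeq2 called 1 member in Aro5, Rorb, in a fit that called 101 genes in place of 32. It called 0 members in BPA5 and CPF3, where 63 and 82 genes were called in place of 31 and 26. In Aro5 pups all 8 members had a log2 fold change above 0, with a median of 0.41 against 0.00 over all genes. This sign held in 29 of 38 alternatives for Bcl11b, 28 of 38 for Lamp5, 37 of 38 for Fezf2 and Tbr1, and in all 38 for the other 4. The values were 0.70 ± 0.19 (SE) for Rorb, 0.67 ± 0.22 for Cux2, 0.61 ± 0.21 for Tbr1, 0.57 ± 0.28 for Mef2c and 0.26 ± 0.10 for Cux1, against 0.20 ± 0.21 for Fezf2, 0.02 ± 0.18 for Bcl11b and 0.02 ± 0.48 for Lamp5. Thalamic genes were lower in 6 of 8 cases there, with a median of -0.36 and 0 called, and their part in the member values was not tested. The adjusted p was 0.143 for Rorb and 0.249 for Cux2. With title form as a covariate, Tbr1 in Aro5 pups turned from 0.61 to -0.17, Bcl11b was -0.30, Lamp5 -0.36 and Fezf2 -0.08, and 9 of 10 male control libraries were of form A while all 20 high-dose male libraries were of form B. The separation of treatment from title form thus rests on 1 control library.

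In male BPA5 pups Cux2 gave 0.54 ± 0.21 and Rorb 0.40 ± 0.18, and Mef2c, Tbr1, Fezf2 and Cux1 lay between 0.07 and 0.23, while Bcl11b gave -0.51 ± 0.18 with an adjusted p of 0.439 and Lamp5 -0.85 ± 0.47. All 8 striatal genes were lower there, with a median of -0.66, and none was called. In CPF3 pups Tbr1 gave 0.44 ± 0.20, Fezf2 0.45 ± 0.20, Cux2 0.56 ± 0.21, Mef2c 0.44 ± 0.27 and Rorb 0.33 ± 0.18. Cux1 gave 0.07 ± 0.10, Bcl11b -0.37 ± 0.18 and Lamp5 -0.94 ± 0.47 there. The striatal genes had a median of -0.80, with 8 of 8 lower and 0 called. The limit of title form given for Aro5 pups applies to BPA5 and CPF3 pups as well. Over the alternatives Tbr1 fell as low as -0.71 in BPA5 pups and -0.34 in CPF3 pups. Its sign held in 35 of 38 alternatives in BPA5 pups and in 37 of 38 in CPF3 pups. Between the high-dose male groups no member was called for Aro5 against BPA5, Aro5 against CPF3 or BPA5 against CPF3, where the background was 0% in each. Unadjusted p fell under 0.05 for 2 members in the first (0.55 ± 0.22 for Tbr1 and 0.53 ± 0.19 for Bcl11b), 0 in the second and 0 in the third, where 4.4%, 4.17% and 2.7% of all genes passed. Over the 8 members the fold changes ran from 0.10 (Fezf2) to 0.87 (Lamp5) in the first, from -0.25 (Fezf2) to 0.96 (Lamp5) in the second and from -0.37 (Tbr1) to 0.09 (Lamp5) in the third. Other neocortical genes gave 0 of 19 called in each high-dose contrast.

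**Figure D4:**
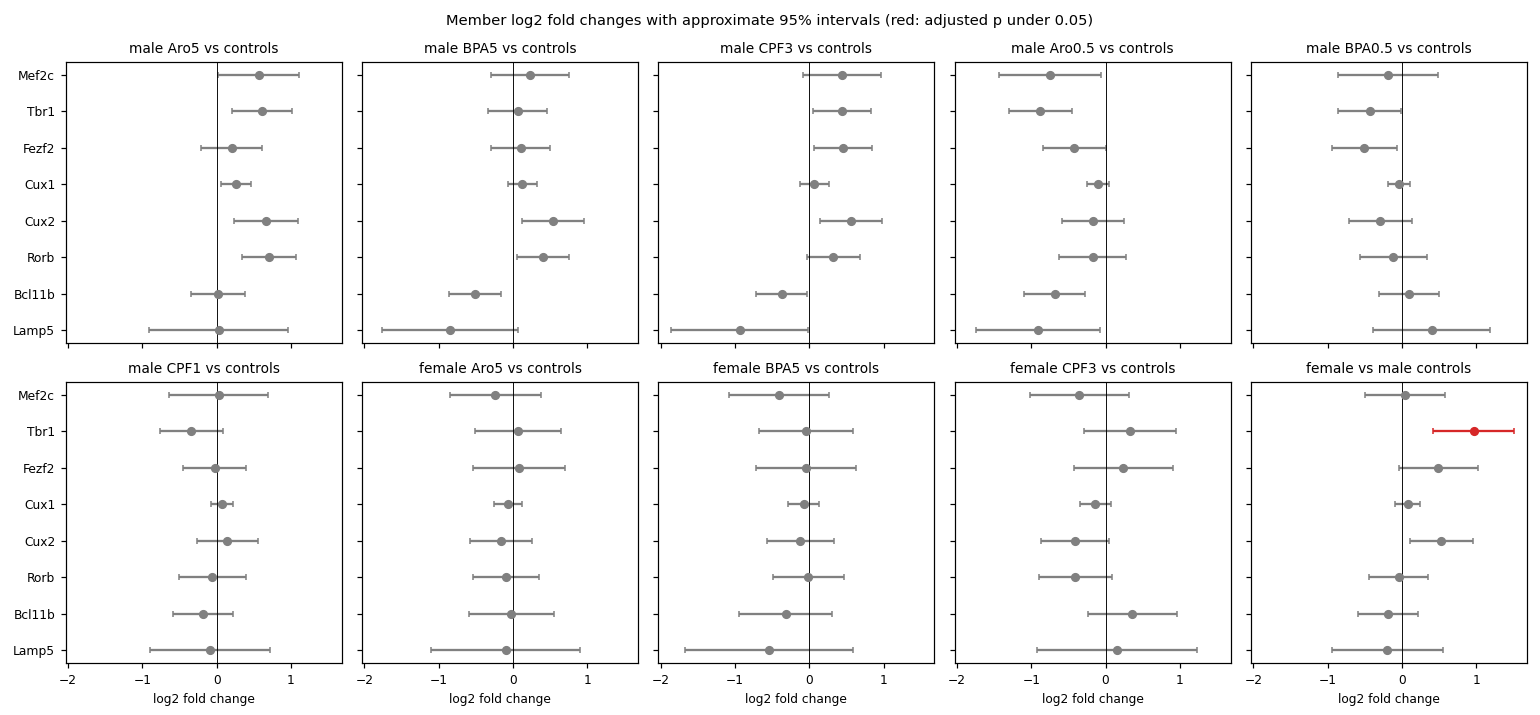
Log2 fold change (horizontal axes) of each member (vertical axes) in 9 treatment comparisons with controls of the same sex and in female against male controls, with points for edgeR estimates and whiskers for approximate 95% intervals, red where the adjusted p was under 0.05. Tbr1 in the sexes is the single red point, at 0.96.

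In low-dose males, where the question was the same at a lower dose, 0 of 8 members were called in any of the 3 groups (Aro0.5, BPA0.5, CPF1), against a background of 0.124%, 0.0434% and 0% of 16139 genes. Unadjusted p fell under 0.05 for 4, 1 and 0 members, where 18.5%, 8.58% and 2% of all genes passed, so that 1 of 8 in BPA0.5 was near the background. In Aro0.5 pups all 8 members had a log2 fold change below 0, with a median of -0.55. Tbr1 gave -0.88 ± 0.22 with an adjusted p of 0.115, and its levels of 5.61, 6.68, 4.37 and 5.03 CPM lay below all 9 male controls, the lowest at 7.28 CPM. The ranges of the other members overlapped those of the controls, and the share of all genes without overlap was not counted. Bcl11b gave -0.69 ± 0.21 (adjusted p = 0.138), Lamp5 -0.91 ± 0.43 and Mef2c -0.75 ± 0.35, and the other 4 members lay between -0.42 (Fezf2) and -0.11 (Cux1). DESeq2 called Tbr1, with an adjusted p of 0.0189, in a fit that called 258 genes in place of 20. Without the male CONSC pup 8-4y, edgeR called Tbr1 (adjusted p = 0.0361) and Bcl11b (adjusted p = 0.0464), in a fit that called 2% of 16119 genes, 322 in place of 20. In Aro0.5 pups 8 of 8 striatal genes were lower (median -0.87) and 7 of 8 thalamic genes higher (median 0.56), with 0 called in either list, and the part of tissue composition in the member values was not tested. In BPA0.5 pups Fezf2 gave -0.51 ± 0.22 and the other members lay between -0.44 (Tbr1) and 0.40 (Lamp5), and in CPF1 pups the members lay between -0.34 for Tbr1 and 0.14 for Cux2.

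In females 0 of 8 members were called in Aro5, BPA5 or CPF3 pups, where the background was 0% of 16992 genes in each, and 0 members had an unadjusted p under 0.05 in any of the 3. DESeq2 called 0 members as well. The members lay between -0.24 (Mef2c) and 0.08 (Fezf2) in Aro5 pups, between -0.54 (Lamp5) and -0.01 (Rorb) in BPA5 pups and between -0.42 (Cux2) and 0.36 (Bcl11b) in CPF3 pups. The intervals were wide. That of Lamp5 in female Aro5 pups ran from -1.10 to 0.91, and that of Cux2 in CPF3 pups from -0.87 to 0.04. CONF and CONSC did not separate the members in either sex, with 0 of 8 called in males (background 0.013% of 15387 genes) and 0 of 8 in females (0% of 16618 genes), and 0 members at an unadjusted p under 0.05. DESeq2 also called 0. In male CONF against CONSC pups the members lay between 0.04 (Cux2) and 0.23 (Rorb). In female CONF against CONSC pups Lamp5 gave -0.58 ± 0.56 and Bcl11b -0.38 ± 0.30, the other 6 lay between 0.10 (Fezf2) and 0.49 (Mef2c), and pup 9-1x is among the CONSC pups.

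Female controls differed from male controls at many genes, with 30.9% of 15763 genes called, and 1 of 8 members, Tbr1, was called. Tbr1 was higher in females by 0.96 ± 0.28 (SE) on the log2 scale, with an adjusted p of 0.011, and levels of 20.0 ± 8.10 CPM (SD, n = 10) against 10.4 ± 3.11 CPM (n = 9). The share of members called, 1 of 8, was below the background share. Cux2 gave 0.53 ± 0.21 (adjusted p = 0.0649) and Fezf2 0.49 ± 0.27 (adjusted p = 0.174), while Mef2c gave 0.04 ± 0.27, Rorb -0.04 ± 0.20, Cux1 0.08 ± 0.09, Bcl11b -0.19 ± 0.20 and Lamp5 -0.20 ± 0.38. Without pup 9-1x, Fezf2 (0.63, adjusted p = 0.000729) and Cux2 (0.62, adjusted p = 0.014) were called as higher and Bcl11b (-0.42, adjusted p = 0.0241) as lower. Thus 4 of 8 members were called in place of 1, in a fit that called 36.5% of 15602 genes. The direction of these shifts was fixed in advance, because 9-1x had been set apart by its levels of these same members. With title form as a covariate Tbr1 gave 0.57 with an adjusted p of 0.121, although form was read from different features in males and females. Within form A libraries the median of Tbr1 was 16.0 CPM in 5 female and 9.46 CPM in 9 male controls, and in form B it was 25.7 CPM in 6 female libraries and 18.1 CPM in the 1 male library. The pan-pallial genes Emx1 and Neurod2 were higher as well, as were the hippocampal genes Wfs1, C1ql2, Bok and Grik4. Mdga1 was higher and Etv1 and Pcp4 were lower among 19 other neocortical genes. Of the remaining lists, the neuron genes Rbfox3 and Tubb3, the interneuron gene Slc32a1, the endothelial gene Cldn5 and the oligodendrocyte lineage genes Olig1, Sox10 and Mbp were higher in females, and Pdgfra of the oligodendrocyte lineage and the astrocyte gene Slc1a3 were lower. Their part in the member values was not tested.

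The interaction of sex with treatment, which asks whether the female response differs from the male one, called 0 of 8 members for Aro5, BPA5 and CPF3, where the background was 0.0984%, 0.0405% and 0.0463% of 17282 genes. Unadjusted p fell under 0.05 for 3, 0 and 3 members, where 8.92%, 2.79% and 5.6% of all genes passed, and DESeq2 called 0. For Aro5 all 8 differences were below 0. Cux2 gave -0.84 ± 0.33, Rorb -0.81 ± 0.31 and Cux1 -0.34 ± 0.15, the 3 with an unadjusted p under 0.05. Their adjusted p was 0.413, 0.405 and 0.49. Mef2c gave -0.82 ± 0.44 with an adjusted p of 0.603. The remaining members lay between -0.56 (Tbr1) and -0.04 (Bcl11b). For BPA5 the members lay between -0.66 (Cux2) and 0.31 (Lamp5). For CPF3 Cux2 gave -0.99 ± 0.34, Rorb -0.75 ± 0.32 and Bcl11b 0.72 ± 0.35, and the other 5 lay between -0.80 (Mef2c) and 1.08 (Lamp5).

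One male CONF pup, N2-2y, and one female CONF pup, N4-3x, were each sequenced as 2 libraries of different title form, which were summed. The labels give both libraries of the first the time 10.57, but those of the second 12.09 and 11.55, so that these were taken as 1 pup from the litter and pup number alone. In the first, form A and form B gave 708 and 546 CPM for Mef2c, 13.7 and 18.1 CPM for Tbr1, 26.7 and 39.6 CPM for Fezf2 and 23.1 and 22.3 CPM for Lamp5. In the second the libraries were closer, at 497 and 504 CPM for Mef2c, 24.3 and 27.2 CPM for Tbr1, 40.4 and 41.0 CPM for Fezf2 and 21.5 and 22.0 CPM for Lamp5. Tbr1, Fezf2, Cux1 and Cux2 were higher in form B in both pups, and Bcl11b and Rorb were lower in both. Mef2c and Lamp5 were lower in form B in the first pup and higher in the second.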

How the data were processed

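RNA of the dissected dorsal hippocampus was sequenced from poly(A) libraries made with a stranded kit. Per the labels and methods, reads were aligned with STAR to the rat genome Rnor_6.0 and counted per gene with featureCounts. The authors deposited raw counts per gene for each library. Tool versions, whether counting used strand, and how multiply mapped reads were counted are not given in the sources used here. The 2 libraries of 1 pup were summed.

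edgeR's quasi-likelihood test (TMM scaling, filterByExpr, Benjamini-Hochberg adjustment over all genes tested, threshold 0.05) compared groups. Intervals are 1.96 SE either side, with the SE taken from the log2 fold change and its F statistic. Correlations used log2(CPM + 1). Fits were tested on simulated counts. DESeq2, limma-voom, other filters, scalings, subsets and each pup left out in turn were alternatives. Named genes followed a rule: all 8 members in every comparison (by value or by range), called genes of the other lists, and the genes with the most similar pattern. The members and lists were chosen with earlier results of these data known. Some genes counted in these lists are not reported here by name. Columns of per-sample values left unused numbered 0. Littermates were not treated as a block in the main fit.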

Additional observations from a re-analysis of the deposited data

Results flagged for a closer look

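Of 104 ranges of a member within a group, 5 had 1 pup far from the others by Dixon's criterion, which chance flags in about 1 of 20 groups. Tbr1 was 5.14 CPM in male BPA0.5 pup 73-4y, below 8.15 to 8.74 CPM in the other 3 pups of the group. Fezf2 was 31.7 CPM in female CPF3 pup 43-3x, below 55.8 to 60.8 CPM in the others. Bcl11b was 268 CPM and Lamp5 52.7 CPM in female CONSC pup 9-1x, above 83.3 to 97.7 CPM and 5.84 to 10.1 CPM in the other 4 pups. Lamp5 was 29.996 CPM in male CPF3 pup 45-1y, above 2.91 to 6.89 CPM in the others. In both pups with high Lamp5 the summed striatal genes were also the highest of their group, at 1570 CPM in 9-1x and 764 CPM in 45-1y.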

How the results depend on the processing

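No member reversed a call under any alternative, and of 653 counts of called members 640 stayed at their value. In male Aro5 pups the count went from 0 to 1 (Rorb) with DESeq2 and to 1 (Rorb) with pups inside the time window of the methods, and in Aro0.5 pups from 0 to 1 with DESeq2 and to between 0 and 2 with each pup left out, the 2 being reached without male CONSC pup 8-4y. In female against male controls the count of 1 became 2 with libraries counted separately, 0 with title form as a covariate, 0 in limma-voom with the litter as replicate block and 0 in limma-voom without it, and 1 to 4 with each pup left out. Cux2 was added without female CONF N2-4x, female CONSC 11-3x, male CONF N4-7y or male CONSC 10-2y, and 4 members were called without 9-1x. The litter correlation was -0.17 in controls and -0.01 in the interaction fit, so litters were not taken as pairs, and the block changed no call against limma-voom without it. The time window of the methods ran from 10.30 to 13.20 h, and by the times in the labels 11 pups lay outside it. Among them were male Aro5 pups 108-1y (15.45) and 117-4y (9.45) and male CONSC pup 10-2y (10.00). That alternative thus left out both treated and control males. Over all genes, male Aro5 calls went from 32 to 818 inside the time window, 101 with DESeq2 and 0 with title form as a covariate. Aro0.5 calls went from 20 to 258 with DESeq2 and to 0 inside the time window, and sex calls from 4865 to 2967 with title form. The cause of these shifts was not tested.

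Over all 28 pairs the median r of 0.35 was 0.47 with centring and 0.57 within males. For Mef2c, Tbr1, Fezf2, Cux2 and Rorb the median r of 0.63 was 0.72 with centring, 0.75 in form A, 0.55 in form B, 0.74 within males, 0.75 within females and 0.73 with 1 pup per litter. Bcl11b or Lamp5 with those 5 genes had a median of -0.16, which was 0.12 in form B, -0.39 within females and -0.19 to -0.027 with each pup left out, the last without 9-1x. Bcl11b with Lamp5 (0.86) was 0.83 in form B, 0.83 within males and 0.94 within females. Lamp5 with the striatal list (0.97) was 0.98 in form A and 0.97 in form B, and Bcl11b (0.89) was 0.81 in form B, 0.85 within males and 0.95 within females. Fezf2 with the pan-pallial list (0.93) was 0.90 by rho, 0.89 within males, 0.95 within females, 0.89 without the 2 pups farthest from the list median (an alternative chosen after seeing the data), and 0.89 to 0.93 with each pup left out. Mef2c with the neocortical list (0.89) was 0.85 in form B and 0.84 within females. Tbr1 with it (0.61) was 0.52 by rho, 0.84 with centring, 0.75 in form A, 0.53 in form B, 0.85 within males, 0.92 within females and 0.50 without the 2 farthest pups.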
